A study of Homo sapiens with 24 samples.

Results

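The genes described here are 37 lysosome and autophagy genes, chosen as a fixed list of acid hydrolases, lysosomal membrane proteins and transporters, proton pump subunits, autophagy adaptors and the transcription factors TFEB and TFE3. The list names the genes and takes no measured value as a criterion, but it was chosen with earlier results of these data known. The Ensembl identifiers of the count table were matched to symbols. All 37 were found among 60230 genes, and all 37 were among the 18242 genes that passed the low-count filter. RNA was sequenced from 24 xenograft tumors grown in mice from AsPC-1 cells, which come from a human pancreatic ductal adenocarcinoma. Every mouse received 3 oral doses, given every other day. The vehicle group received 5% DMSO in 95% PEG400 and was sampled 2 h after its last dose. The other 5 groups received IK-595 at 6 mg/kg, which the series title calls a molecular glue of MEK and RAF, and were sampled 2, 4, 8, 24 and 48 h after the last dose. There were 4 tumors in each group, the labels give 4 animals per IK-595 time point, and all tumors came from 1 cell line. The labels name neither the strain nor the age of the mice.

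Lysosomes are the acidic organelles in which cells break down proteins, glycans and lipids, and autophagy is the route that brings cytoplasm to them. TFEB and its relative TFE3 are transcription factors that bind an E-box type motif in the promoters of many lysosomal genes and raise their transcription. Phosphorylation by ERK or by the nutrient sensor mTORC1 keeps TFEB out of the nucleus, and pancreatic ductal tumors are known for a large lysosomal compartment that feeds their metabolism.

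Depth ranged from 10516000 to 20639340 counts per tumor. The summed level of 10 MAPK output genes (in CPM, counts scaled to a common library size) was 1638 to 1759 in vehicle tumors. After IK-595 it was 253 to 361 at 2 h, 123 to 195 at 4 h, 95.4 to 190 at 8 h, 709 to 1020 at 24 h and 1184 to 1745 at 48 h. Summed levels of 10 pancreatic tumor epithelium markers were 6147 to 16257 CPM. They were 9055 to 12312 CPM in vehicle tumors, 6147 to 10185 at 8 h and 12772 to 16257 at 48 h, where every tumor was above every vehicle tumor. KRT8, KRT19 and KRT18 had the highest medians of that list (4466, 2251 and 1782 CPM over the 24 tumors). KRT7 was low, at 1.77 to 10.5 CPM, and was called fallen at 2 and 24 h, and S100P was 11.6 to 89.2 CPM. Against vehicle, EPCAM and MUC1 were called risen at 2, 8, 24 and 48 h, CDH1 at 4, 24 and 48 h and CEACAM5 at 48 h. CEACAM6 was called risen at 4 and 48 h and fallen at 8 h, and KRT18 was called fallen at 8 h. KRT8, KRT19 and S100P were not called against vehicle. Of 15 macrophage markers, 7 were under 1 CPM in every tumor and ADGRE1 and C1QB were at 0. The summed macrophage list was 485 to 722 CPM in vehicle tumors. After IK-595 it was 416 to 492 CPM at 2 h, 534 to 701 at 4 h and 272 to 397 at 8 h, and later 241 to 731 (24 h) and 428 to 674 (48 h). LYZ and CD68 made up most of it. The counts are of human genes while host cells in these tumors are those of a mouse, so no cell type is inferred from the marker sums. Of 10 lymphocyte markers, 9 were under 1 CPM in every tumor. Summed muscle, fat and red cell markers stood above 500 CPM in 5 tumors (2 h tumor 1, 4 h tumor 4, 8 h tumors 2 and 4, 24 h tumor 4) and fibroblast and pericyte markers above 10000 CPM in 4 h tumor 2, at 30629 CPM. Values without these 6 tumors, which leave 2 tumors at 4 h and at 8 h, are given below. In these bulk samples, fewer cells of a type and less RNA per cell cannot be told apart.

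Promoter sequences are shown for the 6 members with the smallest adjusted p among those that changed at 3 or more times and have an entry in the promoter table, and for MCOLN1, GAA and LAMP1, which were added after their motifs had been seen. RefSeq promoters (GRCh38.p14, 250 bases before to 50 after the start) were found for 28 of the 37 members. No entry was found for CTSB, HEXA, MANBA, NAGLU, ARSA (which has the smallest adjusted p of all members), ASAH1, PSAP, LAMP2 and ATP6V1H. Each stretch below is the 150 bases before the RefSeq start, written 5′ to 3′ on the gene's strand, with the E-box CACGTG in capitals. That start can lie inside the gene as GENCODE 29 draws it.
NEU1 (chr6:31862822-31862971, minus strand): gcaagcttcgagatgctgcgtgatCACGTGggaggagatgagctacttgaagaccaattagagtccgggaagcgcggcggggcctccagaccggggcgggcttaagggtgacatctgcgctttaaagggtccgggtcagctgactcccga
CTSD (chr11:1763928-1764077, minus strand): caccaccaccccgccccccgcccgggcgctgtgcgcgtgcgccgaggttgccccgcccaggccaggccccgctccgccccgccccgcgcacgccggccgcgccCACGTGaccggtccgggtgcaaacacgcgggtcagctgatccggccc
CTSA (chr20:45891185-45891334, plus strand): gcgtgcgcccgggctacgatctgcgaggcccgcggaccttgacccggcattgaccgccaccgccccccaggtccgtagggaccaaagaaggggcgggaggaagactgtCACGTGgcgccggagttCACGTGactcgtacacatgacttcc
IDUA (chr4:986894-987043, plus strand): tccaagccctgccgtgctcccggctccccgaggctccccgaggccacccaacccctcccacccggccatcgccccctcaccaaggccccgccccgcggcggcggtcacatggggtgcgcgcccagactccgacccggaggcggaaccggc
NPC1 (chr18:23586507-23586656, minus strand): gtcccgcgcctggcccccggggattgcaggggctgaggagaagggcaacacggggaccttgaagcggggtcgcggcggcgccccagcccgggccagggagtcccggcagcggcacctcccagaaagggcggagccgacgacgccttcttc
PPT1 (chr1:40097253-40097402, minus strand): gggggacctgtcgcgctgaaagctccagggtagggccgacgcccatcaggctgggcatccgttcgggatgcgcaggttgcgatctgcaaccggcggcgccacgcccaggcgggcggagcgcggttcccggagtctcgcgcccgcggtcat
MCOLN1 (chr19:7522474-7522623, plus strand): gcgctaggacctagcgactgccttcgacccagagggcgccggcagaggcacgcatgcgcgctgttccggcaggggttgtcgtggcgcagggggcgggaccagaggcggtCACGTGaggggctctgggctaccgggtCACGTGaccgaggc
GAA (chr17:80101431-80101580, plus strand): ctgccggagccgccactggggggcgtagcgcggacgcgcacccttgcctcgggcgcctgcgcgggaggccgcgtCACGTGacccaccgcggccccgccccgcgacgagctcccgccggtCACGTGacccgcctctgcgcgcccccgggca
LAMP1 (chr13:113297089-113297238, plus strand): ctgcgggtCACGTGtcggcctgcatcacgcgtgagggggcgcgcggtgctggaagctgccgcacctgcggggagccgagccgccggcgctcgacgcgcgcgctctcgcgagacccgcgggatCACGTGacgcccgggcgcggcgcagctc

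The E-box CACGTG, which reads the same on both strands, was found in the promoters of 8 of the 28 members (28.6%) and of 8.77% of the 27305 genes in the table. Those 8 are CTSA, CTSD, NEU1, GAA, LAMP1, CD63, MCOLN1 and ATP6V0D1. The longer TCACGTGA, which contains the E-box and is the symmetric core of the CLEAR element that TFEB is known to bind, was in 5 of 28 members (17.9%) and 1.18% of genes. The 10-base GTCACGTGAC, which contains both, was in GAA and MCOLN1 (7.14% of members) and in 0.421% of genes. In NEU1 the E-box begins 126 bases before the start, in CTSD 47 bases, and in CTSA at 42 and 25 bases. MCOLN1, GAA and LAMP1 each carry 2 copies in the stretch shown. Of the 8 members with the E-box, 5 rose against vehicle at 1 or more times, none fell and 3 (GAA, LAMP1 and ATP6V0D1) passed at no time. Of the 20 members without it, 3 rose and 7 fell at 1 or more times. GC content of the transcripts was 54.0% to 63.4% in the 5 risen with the E-box. It was 54.0% to 68.7% in the 3 risen without it and 42.6% to 51.2% in the 7 fallen. With the GC trend of each tumor removed, as described below, CD63 and MCOLN1 lost their calls, and so did TFEB, which lacks the E-box. The part of GC content in this split was not tested. Among all genes tested that are in the promoter table, 23.6% of the 1392 with the E-box rose at 1 or more times and 36.9% fell, against 24.7% and 33.0% of the 10142 without it. These counts describe letters in a window and carry no test. The members were listed as lysosome and autophagy genes, and the motif is known from lysosomal promoters. A higher share of it among members than among all genes was therefore likely from the choice of list. The same windows of IDUA, NPC1 and PPT1 do not hold these letters.

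Lysosome genes did not move as 1 block after IK-595: some hydrolases rose and stayed up, others fell, and most members did not pass the test. Against vehicle, 18 of the 37 members were called at 1 or more of the 5 times at an adjusted p under 0.05 (edgeR's quasi-likelihood test, adjusted over all 18242 genes). Of these 9 rose, 9 fell and 0 did both, and 19 passed at no time. Of all genes tested, 26.1% rose and 28% fell at 1 or more times, so neither count of members was above the share of all genes. The aspartic protease CTSD, the sialidase NEU1 and the sulfatase ARSA rose at all 5 times. No member fell at all 5, and the cysteine protease CTSL, the thioesterase PPT1 and the cholesterol exporter NPC1 fell at 4. All 5 comparisons use the same 4 vehicle tumors, and vehicle exists at 2 h only.

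**Figure D1:**
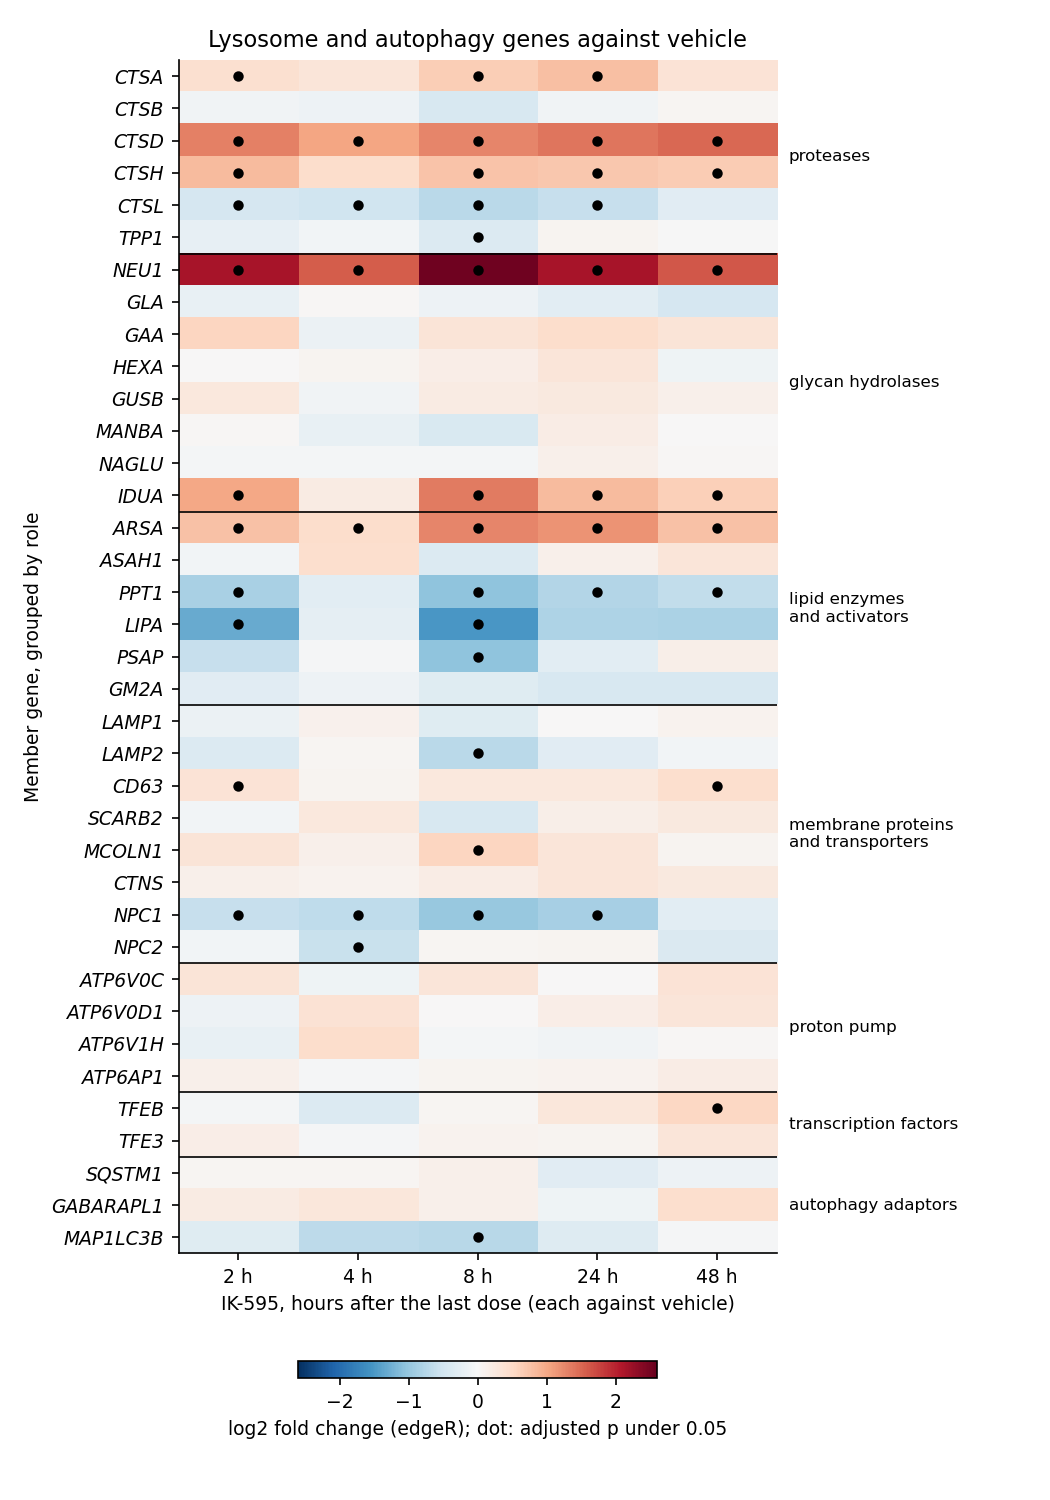
Log2 fold change of each of the 37 members (rows, grouped by role) at 5 times after IK-595 (columns), each against vehicle, with a dot where the adjusted p was under 0.05 in edgeR. NEU1 is the strongest red row and LIPA at 8 h the strongest blue cell, while the proton pump rows hold no dot.

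At 2 h, 7 members rose and 4 fell, or 18.9% and 10.8%, against 13.4% and 13.6% of all genes tested. At 4 h, 3 rose and 3 fell (8.11% each), beside 6.74% and 8.39% of all genes. At 8 h, 7 rose and 8 fell (18.9% and 21.6%), beside 20.6% and 23.7%. The 24 h comparison gave 6 risen and 3 fallen (16.2% and 8.11%), beside 13.7% and 13.8%. At 48 h, 7 rose and 1 fell (18.9% and 2.70%), when 5.52% of all genes had risen and 4.46% had fallen. The members' shares were close to the background at 4 and 8 h, and the share of risen members at 48 h was the farthest above it. That count at 48 h was 3 without vehicle tumor 1, vehicle tumor 2 or 48 h tumor 4, 4 without 48 h tumor 2, and 3 once the GC trend of each tumor was removed. With that trend removed 822 of all 18242 genes had risen at 48 h, against 1007 as counted. At 24 h 10 rose when 24 h tumor 1 was left out, and 5 fell without 24 h tumor 3. The fallen count was 1 at 4 h without 4 h tumor 2 or vehicle tumor 3, and 5 at 8 h without 8 h tumor 4 or vehicle tumor 3.

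The median log2 fold change of the members at 2, 4, 8, 24 and 48 h was -0.06, 0.04, 0.05, 0.09 and 0.13. The same median over all genes tested was 0.05, 0.03, 0.07, 0.06 and -0.01. Summed over the 37 members, the level was 5345 ± 548 CPM in vehicle tumors (SD, n = 4), 5377 ± 221 at 8 h and 6185 ± 368 at 48 h, so the rises and falls nearly cancelled at 8 h. At 24 h the sum was 3611 CPM in tumor 1 and 6099 to 6634 in the other 3. In 24 h tumor 1, 30 of 37 members were at the lowest level of their group and 17 at the lowest of all 24 tumors. That tumor also had the lowest summed macrophage list of the study, 241 CPM, and the highest GC trend (0.41, defined with the GC values below), and the part of either in its member levels was not tested.

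**Figure D2:**
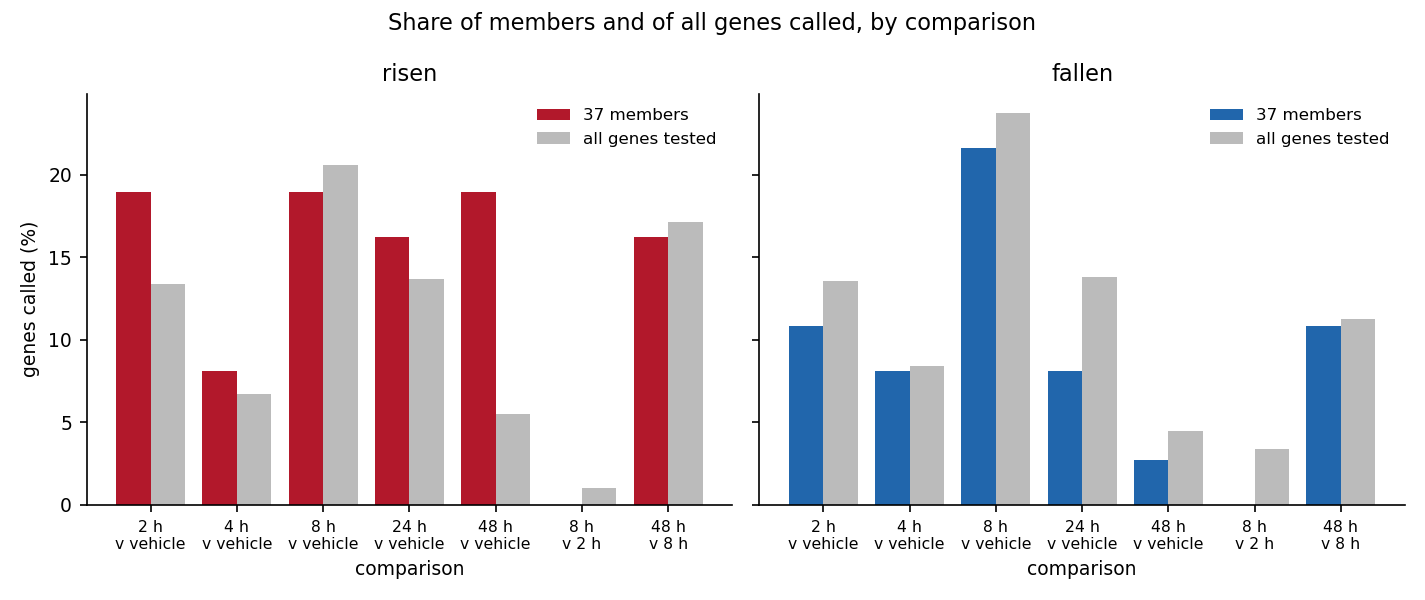
Percent of the 37 members (colored bars) and of all 18242 genes tested (gray bars) that rose (left) or fell (right) in each of 7 comparisons. The 2 kinds of bar differ most for genes risen at 48 h, at 18.9% of members and 5.52% of all genes.

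Among the 6 proteases, 3 rose and 1 fell at 2 h, when 13.4% and 13.6% of all genes tested did. At 8 h 3 rose and 2 fell, beside 20.6% and 23.7% of all genes. At 48 h 2 rose and 0 fell, beside 5.52% and 4.46%. CTSD (ENSG00000117984.15, chr11:1752752-1764573, minus strand in GENCODE 29 on GRCh38), the main aspartic protease of lysosomes, was 184, 222, 219 and 193 CPM in vehicle tumors 1 to 4, 372, 436, 583 and 641 at 2 h and 372, 418, 481 and 389 at 4 h. It was 503, 422, 636 and 424 CPM at 8 h, 239, 722, 595 and 605 at 24 h and 509, 687, 439.9 and 664 at 48 h. Every IK-595 tumor was above every vehicle tumor, and 24 h tumor 1 was nearest to them. At 2, 4, 8, 24 and 48 h it had log2 fold changes of 1.31 ± 0.24, 1.02 ± 0.24, 1.28 ± 0.24, 1.40 ± 0.24 and 1.49 ± 0.24 (± standard error, SE), with adjusted p of 0.000645, 0.00512, 0.000233, 0.000283 and 0.000469. The 48 h value had not returned toward vehicle, and 48 h against 8 h was 0.21 ± 0.24 (adjusted p = 0.524).

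CTSA (ENSG00000064601.21, chr20:45890144-45898820, plus strand), a carboxypeptidase that also protects NEU1 in a complex, was 253, 254, 285 and 247 CPM in vehicle tumors, 300.3, 344, 344 and 396 at 2 h and 341, 283, 336 and 341 at 4 h. At 8 h it was 403, 373, 487 and 347 CPM, at 24 h 287, 485, 512 and 504 and at 48 h 294, 333, 346 and 364. All tumors at 2, 8, 24 and 48 h were above all vehicle tumors, with 24 h tumor 1 lowest in its group. It rose at 8 h (log2 fold change 0.63 ± 0.15, adjusted p = 0.00179) and at 24 h (0.78 ± 0.15, adjusted p = 0.000689). The call at 2 h (0.41 ± 0.15, adjusted p = 0.0451) was lost on leaving out any 1 tumor except 2 h tumor 1, with values of 0.34 to 0.46, and on removing the GC trend.

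CTSH (ENSG00000103811.18, chr15:78921058-78949574, minus strand), a cysteine aminopeptidase, was 82.2, 94.6, 149.7 and 99.9 CPM in vehicle tumors, 160.0, 168, 182 and 241 at 2 h and 158, 152, 159 and 113 at 4 h. It was 153, 172, 181 and 204 CPM at 8 h, 110.2, 179, 173 and 226 at 24 h and 143, 159.8, 154 and 216 at 48 h. Vehicle tumor 3 was the highest vehicle tumor and overlapped the 4, 24 and 48 h groups. It rose at 2 h (log2 fold change 0.82 ± 0.20, adjusted p = 0.00545) and 8 h (0.73 ± 0.20, adjusted p = 0.00551). The calls at 24 h (0.69 ± 0.20) and 48 h (0.66 ± 0.20) were each lost on leaving out 1 tumor, at 24 h vehicle tumor 1 or 24 h tumor 4 and at 48 h any 1 of 48 h tumors 2 and 4 and vehicle tumors 1, 2 and 4, with values of 0.54 to 0.90 and 0.52 to 0.86. On log2(TPM + 1), all 4 CTSH calls missed the threshold in limma (adjusted p = 0.252 at 2 h and 0.520 at 8 h), and so did CTSA at 8 h (adjusted p = 0.241).

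CTSL (ENSG00000135047.16, chr9:87725519-87731393, plus strand), a cysteine endopeptidase, moved the other way. It was 40.1, 38.6, 46.7 and 34.02 CPM in vehicle tumors, 31.7, 26.8, 30.2 and 28.7 at 2 h and 27.6, 22.9, 30.5 and 30.6 at 4 h. Levels were 27.2, 23.4, 26.8 and 21.1 CPM at 8 h, 15.8, 30.7, 28.7 and 29.7 at 24 h and 31.7, 29.3, 30.1 and 38.2 at 48 h. All tumors from 2 to 24 h were below all vehicle tumors, and 1 tumor at 48 h was within their range. It fell at 8 h (log2 fold change -0.69 ± 0.16, adjusted p = 0.00160) and 24 h (-0.60 ± 0.16, adjusted p = 0.00879), calls that held on leaving out each tumor. Those at 2 h (-0.44 ± 0.16) and 4 h (-0.51 ± 0.16) were less stable. The 2 h call was lost without any tumor except 2 h tumor 1 and vehicle tumor 4 (-0.51 to -0.37), and the 4 h call without any except 4 h tumor 4 and vehicle tumor 4 (-0.56 to -0.41). TPP1, a tripeptidyl peptidase, was called fallen at 8 h alone (-0.35 ± 0.14, adjusted p = 0.0466), which was lost without any tumor except 8 h tumor 1 and vehicle tumor 4, at -0.41 to -0.30. CTSB, the most abundant cathepsin among the members per length (434 ± 56.8 TPM in vehicle tumors), passed at no time.

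**Figure D3:**
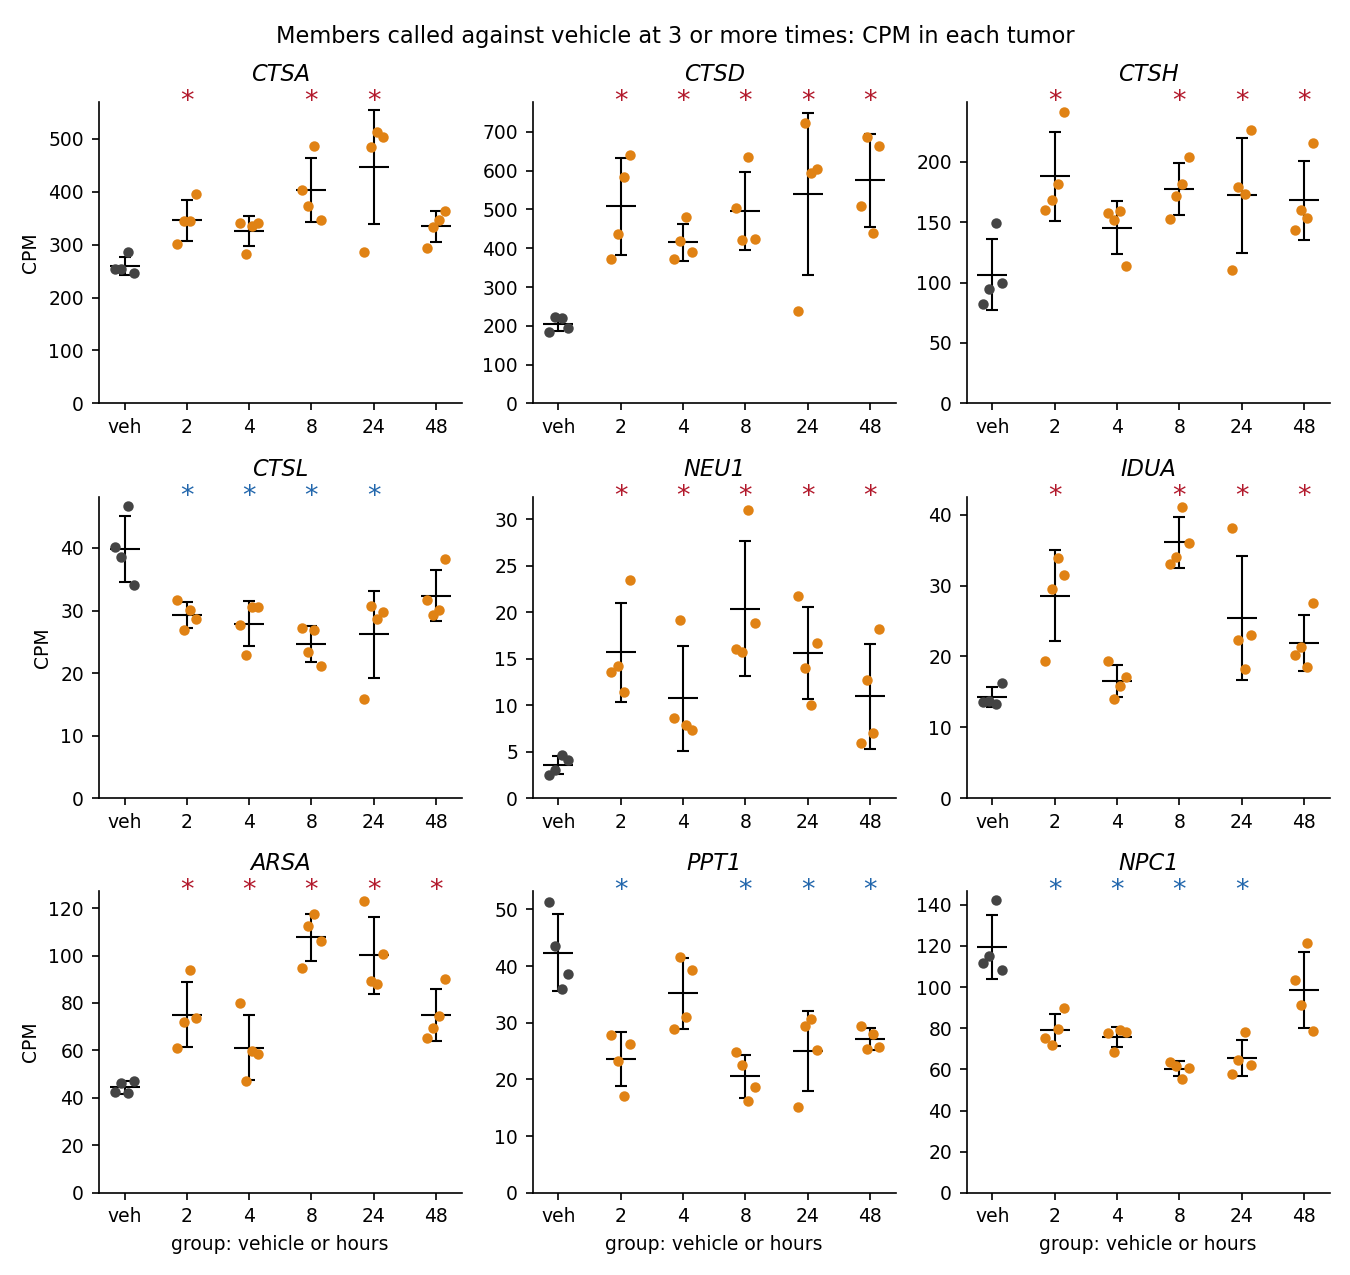
CPM of the 9 members called at 3 or more times in each of 24 tumors (points), with the mean and SD of each group of 4 (bar and whiskers) and a red or blue star where the group rose or fell against vehicle. CTSD and NEU1 have all IK-595 tumors above all vehicle tumors, and NPC1 returns toward the vehicle level at 48 h.

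Of the 8 glycan hydrolases, NEU1 and IDUA rose and the other 6 (GLA, GAA, HEXA, GUSB, MANBA and NAGLU) passed at no time. NEU1 (ENSG00000204386.12, chr6:31857659-31862906, minus strand), the lysosomal sialidase, was the least abundant member per length in vehicle tumors, at 1.73 ± 0.449 TPM. It was 2.44, 3.002, 4.63 and 4.10 CPM in vehicle tumors, 13.6, 14.2, 11.4 and 23.4 at 2 h and 8.59, 19.1, 7.83 and 7.35 at 4 h. At 8 h it was 16.0002, 15.7, 30.99 and 18.8 CPM, at 24 h 21.7, 14.04, 9.96 and 16.6 and at 48 h 5.88, 12.7, 7.004 and 18.2. No IK-595 tumor overlapped the vehicle tumors, and 4 h tumor 2, the tumor rich in fibroblast markers, was the highest at 4 h. At 2, 4, 8, 24 and 48 h it had log2 fold changes of 2.14 ± 0.38, 1.58 ± 0.38, 2.52 ± 0.39, 2.13 ± 0.38 and 1.62 ± 0.38, the largest rise of any member at each time. Adjusted p was 0.000495, 0.00590, 2.61e-05, 0.000399 and 0.00759, and all 5 calls held on leaving out each tumor. Without the 6 tumors rich in host markers the 4 h value was 1.23 (adjusted p = 0.0828).

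IDUA (ENSG00000127415.13, chr4:986997-1004506, plus strand), which removes iduronic acid from glycosaminoglycans, was called at 2, 8, 24 and 48 h but not at 4 h. It was 13.6, 13.7, 13.3 and 16.3 CPM in vehicle tumors, 19.4, 29.6, 33.9 and 31.5 at 2 h and 19.4, 13.97, 15.8 and 17.2 at 4 h. Levels were 33.1, 34.1, 41.2 and 36.02 CPM at 8 h, 38.1, 22.3, 18.3 and 23.03 at 24 h and 20.2, 21.4, 18.5 and 27.6 at 48 h. The 8 h tumors were above all vehicle tumors and above all 48 h tumors, and only the 4 h group overlapped the vehicle group. It rose by 1.01 ± 0.19 at 2 h, 1.34 ± 0.20 at 8 h (adjusted p = 1.25e-05) and 0.83 ± 0.19 at 24 h on the log2 scale, while the 4 h value was 0.22 ± 0.19 (adjusted p = 0.479). With the GC trend removed these rises were 0.51, 0.74 and 0.44, all still called. The 48 h call (0.62 ± 0.19) was lost on leaving out any tumor except 48 h tumor 3 and vehicle tumor 4, with values of 0.49 to 0.70, and on removing the GC trend.

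The 6 lipid enzymes and activators held 1 of the 3 members that rose at every time and the deepest falls. At 8 h 1 rose and 3 fell, when 20.6% and 23.7% of all genes tested did. ARSA (ENSG00000100299.18, chr22:50622754-50628173, minus strand), which desulfates sulfatides, was 42.4, 46.3, 41.96 and 47.1 CPM in vehicle tumors, 61.1, 71.8, 93.7 and 73.6 at 2 h and 80.004, 46.99, 59.7 and 58.3 at 4 h. It was 94.6, 112, 117 and 106 CPM at 8 h, 123, 89.2, 87.97 and 101 at 24 h and 65.4, 69.6, 74.4 and 90.1 at 48 h. Vehicle tumors lay within a narrow band, and 4 h tumor 2 alone among the IK-595 tumors came down into it. At 2, 8, 24 and 48 h it rose by 0.76 ± 0.15, 1.28 ± 0.15, 1.17 ± 0.15 and 0.75 ± 0.15 on the log2 scale (adjusted p = 1.35e-06 at 8 h), and these calls held on leaving out each tumor. At 4 h it was 0.46 ± 0.15 (adjusted p = 0.0414), a call lost without any 1 of 4 h tumors 1 and 4 and vehicle tumors 1 and 3, at 0.31 to 0.59. With the GC trend removed the 2 and 8 h values were 0.34 and 0.79, both called.

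PPT1 (ENSG00000131238.18, chr1:40071461-40097727, minus strand), the palmitoyl-protein thioesterase that removes lipid anchors, fell. It was 51.4, 43.5, 36.03 and 38.6 CPM in vehicle tumors, 27.9, 23.2, 17.003 and 26.2 at 2 h and 28.8, 41.6, 31.03 and 39.3 at 4 h. Levels were 24.8, 22.5, 16.2 and 18.7 CPM at 8 h, 15.1, 29.4, 30.6 and 25.2 at 24 h and 29.5, 25.4, 28.01 and 25.8 at 48 h. The groups at 2, 8, 24 and 48 h lay wholly below the vehicle tumors and the 4 h group overlapped them. The log2 fold change was -0.85 ± 0.19 at 2 h (adjusted p = 0.00312), -1.04 ± 0.20 at 8 h (adjusted p = 0.000194) and -0.76 ± 0.19 at 24 h (adjusted p = 0.00626). The 48 h call (-0.64 ± 0.19) was lost on leaving out any tumor except 48 h tumor 1 and vehicle tumor 3, at -0.71 to -0.53. In deposited TPM the gene was 27.3 ± 5.76 in vehicle tumors, 20.1 ± 14.1 at 2 h and 16.0 ± 7.77 at 8 h (SD, n = 4), and no PPT1 call passed in limma on log2(TPM + 1) (adjusted p = 0.137 at 8 h).

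LIPA, the acid lipase that frees cholesterol and fatty acids from lipoproteins, had the deepest fall of any member. It was 107, 91.6, 73.8 and 87.3 CPM in vehicle tumors, 45.8, 33.4, 39.6 and 27.2 at 2 h and 47.7, 30.1, 22.2 and 25.8 at 8 h. Both groups were below every vehicle tumor, and the log2 fold change was -1.30 ± 0.34 at 2 h (adjusted p = 0.00871) and -1.51 ± 0.35 at 8 h (adjusted p = 0.00144). It was 58.7 to 94.4 CPM at 4 h, overlapping the vehicle tumors, 14.1 to 77.7 at 24 h and 34.6 to 66.0 at 48 h. None of these times passed. At 8 h the summed macrophage list, most of it LYZ and CD68, was also below every vehicle tumor. LYZ and CD68 fell, ITGAM rose and the other 5 tested markers were not called; their part in the LIPA values was not tested.

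PSAP, the precursor of the saposins that present sphingolipids to their hydrolases, fell at 8 h and was higher again at 48 h. Its levels were 655, 637, 782 and 560.1 CPM in vehicle tumors, 391, 315, 288 and 277 at 8 h and 781, 735, 654 and 746 at 48 h. No 8 h tumor overlapped the vehicle or 48 h tumors. At 2 h PSAP was 385 to 473 CPM, below every vehicle tumor. It was 502 to 739 CPM at 4 h and 195 to 777 at 24 h, both overlapping the vehicle tumors, and none of these times was called. It fell by 1.05 ± 0.25 at 8 h against vehicle (adjusted p = 0.00196), and 48 h against 8 h was 1.20 ± 0.25 (adjusted p = 0.00132). Without the 6 tumors rich in host markers these 2 values were -0.96 and 1.11, at adjusted p of 0.0511 and 0.0524. Of the 8 macrophage markers that could be tested, LYZ and CD68 were also called fallen at 8 h and risen at 48 h against 8 h, ITGAM (0.869 to 5.46 CPM over the 24 tumors) was called the opposite way both times, and CD14, CSF1R, MRC1, AIF1 and PTPRC were called neither time. The part of these markers in the PSAP values was not tested. ASAH1, the acid ceramidase, and GM2A, the GM2 activator, passed at no time against vehicle.

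Among the 8 membrane proteins and transporters, NPC1 changed at 4 times and the others at 2 times or fewer. NPC1 (ENSG00000141458.13, chr18:23506184-23586898, minus strand), which exports cholesterol from lysosomes, was 112, 115, 142 and 108 CPM in vehicle tumors, 75.3, 71.8, 79.8 and 89.95 at 2 h and 77.8, 68.6, 79.01 and 78.3 at 4 h. It was 63.7, 61.7, 55.4 and 60.6 CPM at 8 h, 57.9, 64.6, 78.01 and 62.3 at 24 h and 103, 91.3, 121 and 78.5 at 48 h. All tumors from 2 to 24 h were below all vehicle tumors, while the 48 h tumors overlapped them and lay above all 8 h tumors. It fell at 2, 4, 8 and 24 h, with log2 fold changes of -0.59 ± 0.13, -0.65 ± 0.13, -0.98 ± 0.13 and -0.86 ± 0.13 (adjusted p = 3.28e-06 at 8 h). At 48 h it was -0.27 ± 0.13 (adjusted p = 0.189), and 48 h against 8 h was 0.71 ± 0.13 (adjusted p = 0.000285). The 4 calls and the difference between times held on leaving out each tumor, on removing the GC trend and without the 6 tumors rich in host markers. NPC2, which hands cholesterol to NPC1, was called fallen at 4 h alone (-0.57 ± 0.16, adjusted p = 0.0150), a call lost without 4 h tumor 2 or vehicle tumor 3 at -0.64 to -0.45 over the tumors left out.

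MCOLN1 (ENSG00000090674.16, chr19:7522626-7534009, plus strand), the lysosomal calcium channel and a textbook TFEB target, carries 2 E-boxes in the promoter printed above. It was 16.5, 19.3, 21.6 and 19.8 CPM in vehicle tumors, 20.4, 23.2, 31.6 and 22.2 at 2 h and 22.6, 14.1, 22.7 and 25.4 at 4 h. At 8 h it was 29.7, 33.9, 26.7 and 23.9 CPM, at 24 h 23.2, 24.9, 23.8 and 24.001 and at 48 h 18.7, 18.6, 19.7 and 24.3. The 8 and 24 h tumors were above all vehicle tumors and the other groups overlapped them. It rose at 8 h (log2 fold change 0.56 ± 0.16, adjusted p = 0.00731), which held on leaving out each tumor, but was 0.24 (adjusted p = 0.187) with the GC trend removed. The values at 2, 4, 24 and 48 h were 0.33 ± 0.16, 0.14 ± 0.16, 0.31 ± 0.16 and 0.07 ± 0.16, none called.

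Of the other membrane proteins, CD63, a tetraspanin and the most abundant member per length (856 ± 87.9 TPM in vehicle tumors), was called risen at 2 h (0.35 ± 0.13) and 48 h (0.43 ± 0.13). The 2 h call was lost on leaving out any tumor except 2 h tumor 1 and vehicle tumor 3 (0.27 to 0.41), and the 48 h call without any 1 of 48 h tumors 2 and 4 and vehicle tumors 1, 2 and 4 (0.30 to 0.51). Neither was called with the GC trend removed. LAMP2, a heavily glycosylated coat protein, was called fallen at 8 h (-0.70 ± 0.26, adjusted p = 0.0319), which was lost without any tumor except 8 h tumor 1 and vehicle tumor 4 (-0.85 to -0.61) and was -0.46 with the GC trend removed. LAMP1, its relative, was -0.31 ± 0.18 at 8 h (adjusted p = 0.177) and passed at no time. The membrane receptor SCARB2 and the cystine exporter CTNS also passed at no time against vehicle.

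None of the 4 proton pump members (ATP6V0C, ATP6V0D1, ATP6V1H and ATP6AP1), parts of the V-ATPase that acidifies lysosomes, was called at any time in edgeR, except that ATP6V0C was called risen at 2 h without the 6 tumors rich in host markers (0.46, adjusted p = 0.0190). As counted, its 2 h value was 0.34 ± 0.15 (adjusted p = 0.0817). Their log2 fold changes spanned -0.20 to 0.34 at 2 h, -0.11 to 0.47 at 4 h, -0.05 to 0.31 at 8 h, -0.09 to 0.18 at 24 h and 0.03 to 0.36 at 48 h. ATP6V0C, the proteolipid of the membrane ring, was the most abundant of them per length at 423 ± 41.2 TPM in vehicle tumors.

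The transcription factors themselves changed late or not at all. TFEB (ENSG00000112561.19, chr6:41683978-41736259, minus strand) was 16.995, 16.6, 24.7 and 20.6 CPM in vehicle tumors, 18.1, 21.8, 19.9 and 15.9 at 2 h and 15.8, 13.02, 17.04 and 15.99 at 4 h. It was 20.96, 24.1, 18.7 and 17.7 CPM at 8 h, 20.1, 22.4, 26.1 and 28.6 at 24 h and 24.6, 25.3, 30.9 and 33.02 at 48 h. Only the 48 h tumors sat mostly above the vehicle tumors, of which vehicle tumor 3 reached into their range. Log2 fold changes at 2, 4, 8 and 24 h were -0.06 ± 0.15, -0.35 ± 0.15, 0.05 ± 0.15 and 0.30 ± 0.15, none called. At 48 h it was 0.53 ± 0.15 (adjusted p = 0.0282), a call lost without any 1 of 48 h tumors 3 and 4 and vehicle tumors 1 and 2 (0.45 to 0.65), and 0.32 (adjusted p = 0.224) with the GC trend removed.

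TFE3 (ENSG00000068323.17, chrX:49028726-49043486, minus strand) was 28.4, 31.8, 37.9 and 30.5 CPM in vehicle tumors, 33.3, 33.1, 36.4 and 35.1 at 8 h and 38.6, 38.3, 37.7 and 45.2 at 48 h. The other groups were 32.5 to 40.6 CPM at 2 h, 27.6 to 36.8 at 4 h and 32.4 to 34.4 at 24 h, so all groups overlapped the vehicle range. The log2 fold change ranged from -0.03 ± 0.11 at 4 h to 0.31 ± 0.11 at 48 h (adjusted p = 0.0719), and TFE3 passed at no time. The amount of either protein, or its place in the cell, was not measured.

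The 3 autophagy adaptors gave 1 call. SQSTM1 (ENSG00000161011.20, chr5:179806398-179838078, plus strand), also called p62, which links cargo to autophagosomes, was 796, 854, 1121 and 797 CPM in vehicle tumors, 786, 911, 1006 and 967 at 2 h and 967, 728, 936 and 1059 at 4 h. Levels were 951, 1173, 788 and 1002 CPM at 8 h, 468, 691, 876 and 860.0 at 24 h and 751, 766, 937 and 791 at 48 h. Every group overlapped the vehicle tumors, with log2 fold changes of 0.04 ± 0.18, 0.05 ± 0.18, 0.13 ± 0.18, -0.30 ± 0.18 and -0.14 ± 0.18 at 2, 4, 8, 24 and 48 h, none called. With the GC trend removed the 24 h value was -0.52 (adjusted p = 0.0388).

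MAP1LC3B (ENSG00000140941.14, chr16:87383995-87404779, plus strand), which is coupled to lipid on the growing autophagosome, was 55.1, 70.8, 119 and 64.6 CPM in vehicle tumors, 46.6, 54.8, 64.3 and 82.2 at 2 h and 45.8, 42.4, 59.9 and 44.9 at 4 h. At 8 h it was 47.7, 52.3, 43.8 and 45.2 CPM, at 24 h 28.7, 74.5, 72.3 and 69.4 and at 48 h 74.04, 88.1, 64.5 and 77.7. The 8 h tumors were below all vehicle tumors, of which tumor 3 was far above the rest. It was called fallen at 8 h (log2 fold change -0.71 ± 0.25, adjusted p = 0.0228), a call lost without any 1 of 8 h tumors 3 and 4 and vehicle tumor 3, with values of -0.83 to -0.42, and without the 6 tumors rich in host markers (adjusted p = 0.0860). GABARAPL1, of the same family, passed at no time.

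**Figure D4:**
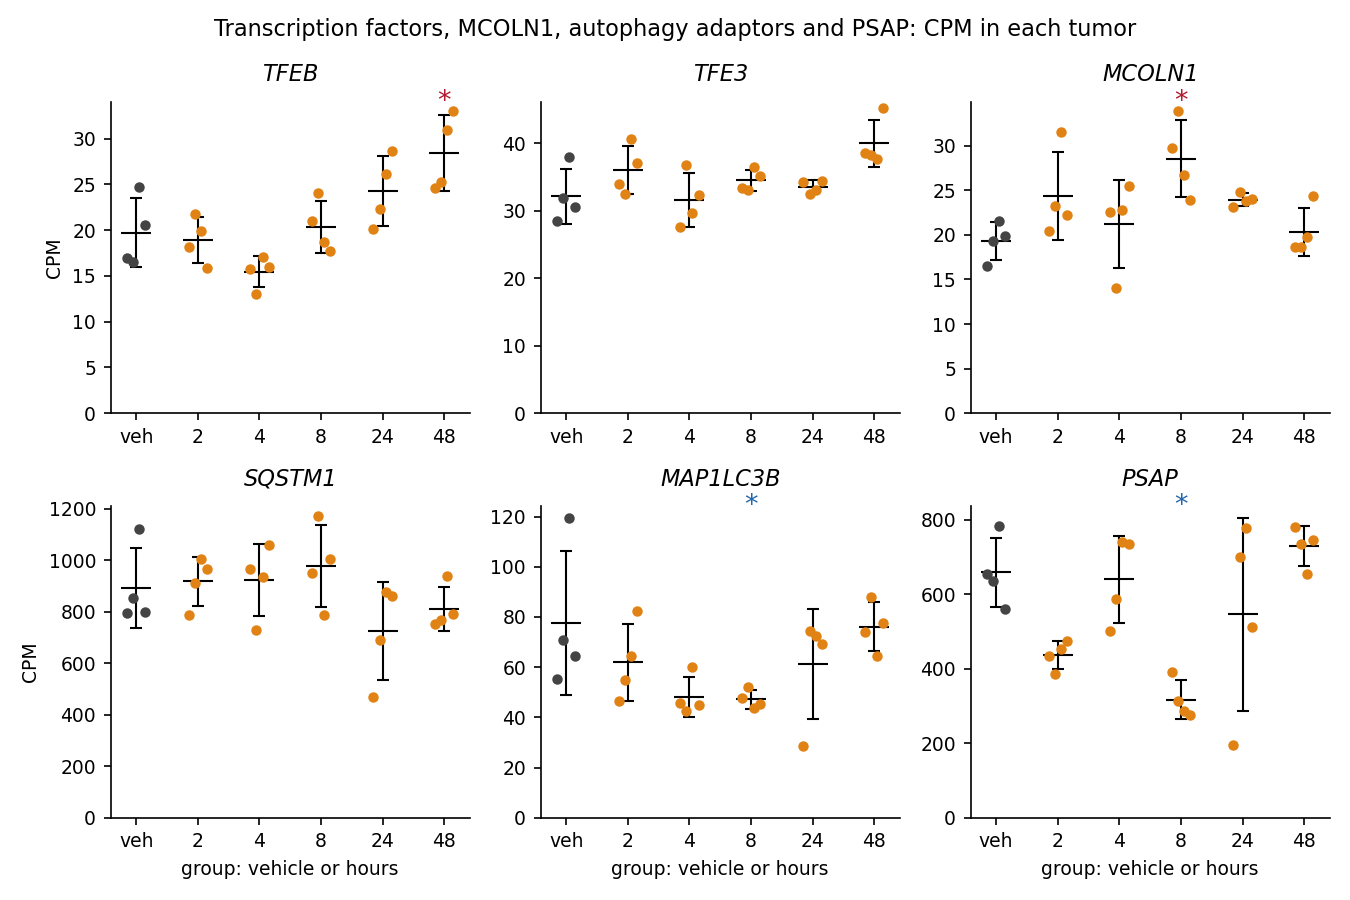
CPM of TFEB, TFE3, MCOLN1, SQSTM1, MAP1LC3B and PSAP in each of 24 tumors (points), with the mean and SD of each group of 4 and a star where the group rose (red) or fell (blue) against vehicle. PSAP, picked for this plot after its values were seen, is low in all 8 h tumors and in 24 h tumor 1.

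Between 2 and 8 h, 0 members rose and 0 fell in edgeR, against 1.05% and 3.41% of all genes. At an unadjusted p under 0.05, 1 member was higher and 2 were lower at 8 h, and DESeq2 called 1 higher. That member was ARSA, at 0.52 ± 0.15 (adjusted p = 0.0517 in edgeR), which with the GC trend removed was 0.44 (adjusted p = 0.0123).

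Between 8 and 48 h, 6 members rose and 4 fell (16.2% and 10.8%), beside 17.1% and 11.3% of all genes. Those higher at 48 h were PSAP (1.20 ± 0.25), NPC1 (0.71 ± 0.13), MAP1LC3B (0.69 ± 0.25), SCARB2 (0.66 ± 0.20), ASAH1 (0.66 ± 0.21) and TFEB (0.48 ± 0.15). Those lower were IDUA (-0.72 ± 0.19), ARSA (-0.52 ± 0.15), MCOLN1 (-0.49 ± 0.16) and NPC2 (-0.43 ± 0.16). NPC1, PSAP and MAP1LC3B had fallen at 8 h, and IDUA, ARSA and MCOLN1 had risen there, so each of these 6 was nearer its vehicle level at 48 h. Both comparisons use the same 8 h tumors, so a member with extreme values there tends to show such a return. PSAP, NPC1 and IDUA held on leaving out each tumor. With the GC trend removed IDUA was -0.39 and ARSA -0.28, both still called, and MCOLN1 was -0.36 (adjusted p = 0.0571). ARSA was lost without 48 h tumor 1, SCARB2 without 48 h tumor 1 or 8 h tumor 4, ASAH1 without 48 h tumor 1 or 2 or 8 h tumor 2 or 4, and TFEB without 48 h tumor 3 or 4 or 8 h tumor 3 or 4. MCOLN1 was lost without 48 h tumor 1, 2 or 3 or 8 h tumor 1 or 2, MAP1LC3B without any tumor but 48 h tumor 3, and NPC2 without any but 48 h tumor 4. The risen count was 3 without 48 h tumor 1 and 2 without 8 h tumor 4, and the fallen count 1 without 48 h tumor 1 and 2 without 48 h tumor 2 or 3 or 8 h tumor 1 or 2. Without the 6 tumors rich in host markers, NPC1 alone was called higher and IDUA alone lower. CTSD and NEU1 were not called in this comparison: 48 h against 8 h was 0.21 ± 0.24 for CTSD and -0.90 ± 0.36 for NEU1 (adjusted p = 0.0674).

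GC content ran with the fold changes, so the members were also compared after a trend on GC was removed from each tumor. The members' transcripts had a median GC content of 54.7% (40.4% to 68.7%), against 50.001% for all genes tested, and 28 of 37 were above that. The trend, taken as the fitted log2 level at the 90th percentile of GC minus that at the 10th, was -0.37 to -0.21 in vehicle tumors and -0.48 to -0.16 at 4 h. It was 0.25 to 0.32 at 8 h, -0.16 to 0.34 at 2 h with tumor 1 lowest, -0.03 to 0.41 at 24 h with tumor 1 highest and -0.24 to 0.37 at 48 h. Vehicle and 8 h tumors did not overlap in this measure.

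Over the 37 members, Spearman's rho between GC and the 8 h log2 fold change was 0.71 as counted and 0.39 with the trend removed, and over all genes 0.24 and 0.00. The points share the same 8 tumors, so this is a description. Members that rose at 8 h had a median GC of 61.9% (54.0% to 68.7%) and those that fell 48.8% (40.4% to 54.7%). With the trend removed, 6 members rose and 9 fell at 8 h, beside 3479 risen and 4216 fallen of all 18242 genes tested. MCOLN1 and LAMP2 were no longer called, and CTSB (-0.60, adjusted p = 0.0188) and NAGLU (-0.45, adjusted p = 0.0305) were called fallen. NEU1 was 2.41, CTSD 0.89, NPC1 -0.88 and PPT1 -0.88 at 8 h in that fit, all called. Of the 49 calls against vehicle, 41 kept their call with the trend removed, 34 held on leaving out each tumor and 42 were between groups that did not overlap. The 49 were picked by adjusted p, which favors stable calls and groups that do not overlap. The same shares over all genes called are not given here.

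Without the 6 tumors rich in host markers, 36 of the 49 calls against vehicle were kept. Besides NEU1 at 4 h, PSAP and MAP1LC3B at 8 h, the calls lost were CTSA, CTSL and CD63 at 2 h, CTSL and NPC2 at 4 h, TPP1 and LAMP2 at 8 h, CTSH at 24 h, and PPT1 and CD63 at 48 h. The values of the lost calls kept their sign, for example CTSA at 2 h (0.46, adjusted p = 0.0505), PPT1 at 48 h (-0.64, adjusted p = 0.0590) and NPC2 at 4 h (-0.41, adjusted p = 0.174).

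Some members share their locus with other genes in GENCODE 29, and strand use in counting is not given in the sources used here, so their counts are uncertain to that extent. CTSA overlaps NEURL2 and PLTP, IDUA overlaps SLC26A1, PPT1 overlaps CAP1, NPC1 overlaps RMC1, SQSTM1 overlaps MGAT4B and MRNIP, MAP1LC3B overlaps FBXO31 and LIPA overlaps IFIT genes, all on the opposite strand. CTSD overlaps AC068580.4 and MCOLN1 overlaps PNPLA6 on the same strand. MAP1LC3B has a near copy, MAP1LC3B2, and CTSL and GUSB have pseudogenes.

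Removing the trend changed the balance of calls at 24 h, to 6 risen and 5 fallen, and at 48 h, to 3 risen and 1 fallen. Over all 18242 genes tested the balance moved as well. At 24 h it went from 2493 risen and 2518 fallen to 2174 and 2879, and at 48 h from 1007 and 814 to 822 and 822. The 3 risen at 48 h in that fit were CTSD, NEU1 and ARSA. On log2(TPM + 1) in limma the split was 3 risen and 1 fallen at 4 h, 5 and 11 at 8 h, 3 and 0 at 48 h and 7 and 1 between 8 and 48 h. Over all 18242 genes that fit gave 752 risen and 907 fallen at 4 h, 1980 and 5149 at 8 h and 494 and 545 at 48 h. Between 8 and 48 h it gave 3090 and 900.

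**Figure D5:**
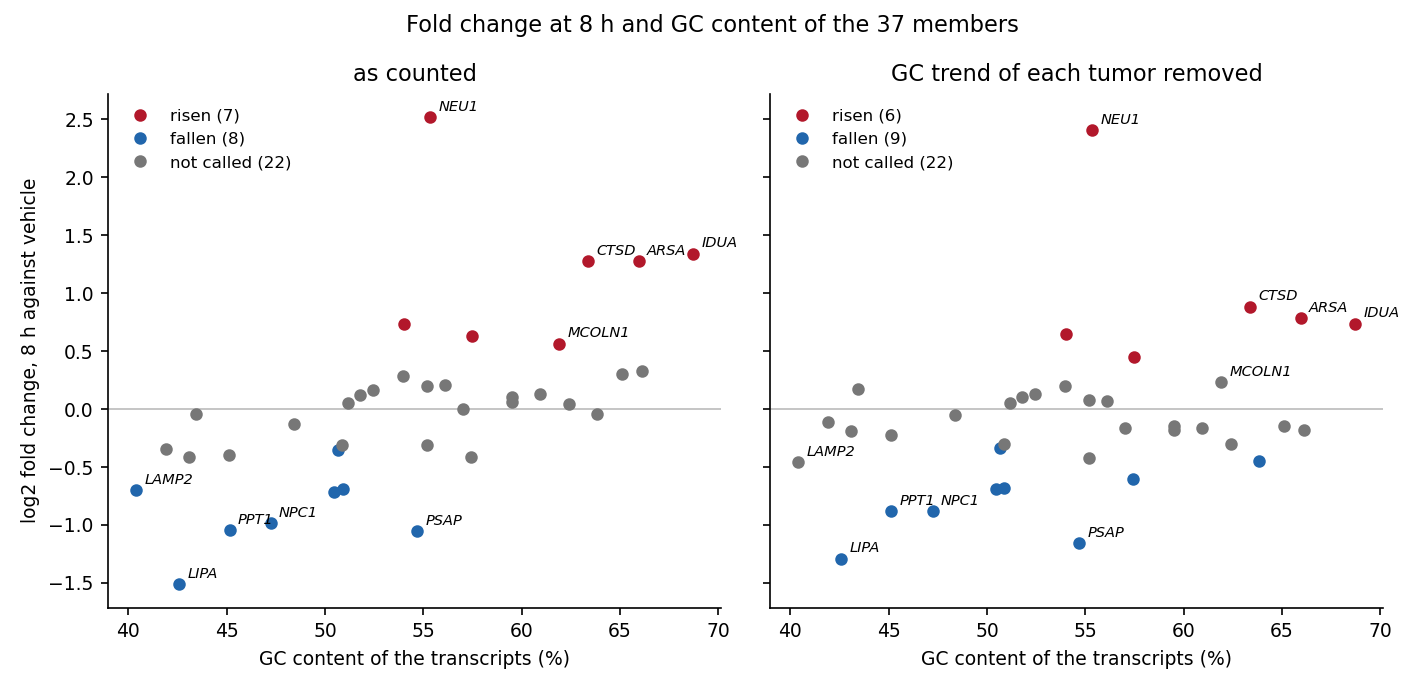
Log2 fold change at 8 h against vehicle (vertical axis) by GC content of the transcripts in percent (horizontal axis) for the 37 members, as counted (left) and with each tumor's GC trend removed (right), colored by call. Risen members lie at 54.0% GC or above on the left, and NEU1, CTSD, ARSA and IDUA are still among the risen on the right.

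The rest of the pathway was described from 5 further lists with 138 genes tested, which hold no member. At 8 h 27 of the 138 rose and 34 fell (19.6% and 24.6%), close to the 20.6% and 23.7% of all genes. At 2 h 20 rose and 13 fell (14.5% and 9.42%, beside 13.4% and 13.6% of all genes), and at 4 h 11 and 6 (7.97% and 4.35%, beside 6.74% and 8.39%). At 24 h 18 rose and 11 fell (13.04% and 7.97%, beside 13.7% and 13.8%), and at 48 h 5 and 1 (3.62% and 0.725%, beside 5.52% and 4.46%). Among 33 other lysosomal hydrolases, 6 rose and 8 fell at 8 h and 6 rose and 1 fell at 24 h. FUCA1, a fucosidase, rose most at 24 h (1.20 ± 0.21, adjusted p = 0.000277), and GGH, which trims folate polyglutamates, fell at 2 h (-1.78 ± 0.30), 8 h (-1.23 ± 0.30) and 48 h (-1.84 ± 0.30). GGH was also called fallen at 24 h (-0.95 ± 0.29, adjusted p = 0.0185), a call lost on leaving out 24 h tumor 1, 24 h tumor 2 or vehicle tumor 1 (values of -1.22 to -0.77 over all single omissions), and without the 6 tumors rich in host markers (-0.96, adjusted p = 0.0688). The gene never called with the highest mean log2 CPM, a scale not set per length, was CTSZ, a carboxypeptidase, at -0.23 ± 0.14 at 8 h.

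Among 25 other membrane and sorting genes, 8 rose and 7 fell at 8 h, when 20.6% and 23.7% of all genes did. ABCB9, a peptide transporter of the lysosomal membrane, rose by 1.10 ± 0.14 at 8 h (adjusted p = 3.57e-06), and GNPTG, part of the enzyme that tags hydrolases with mannose phosphate, by 0.87 ± 0.14 on the log2 scale. At 4 h ABCB9 was 0.62 (adjusted p = 0.00418) and GNPTG 0.11 (adjusted p = 0.653). By the same rule LAPTM4A, a membrane protein, was -0.23 ± 0.25 at 8 h. Of 14 other pump subunits, 3 rose and 5 fell at 8 h: ATP6V0A1 rose (0.64 ± 0.11, adjusted p = 5.1e-05) and ATP6V1C1 fell (-0.70 ± 0.16, adjusted p = 0.00154), while ATP6V0E1 was -0.31 ± 0.16 and never called.

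Of 44 other autophagy genes, 6 rose and 11 fell at 8 h, beside 20.6% and 23.7% of all genes, and 10 rose and 1 fell between 8 and 48 h, beside 17.1% and 11.3%. ATG16L1, a scaffold of the LC3 conjugation machinery, was 246, 269, 259.5 and 224 CPM in vehicle tumors, 79.6, 70.7, 81.6 and 67.4 at 8 h and 216, 193, 253 and 211 at 48 h. PLEKHM1, an adaptor for fusion of autophagosomes with lysosomes, was 60.3, 68.3, 105 and 70.6 CPM in vehicle tumors. It was 22.1, 19.5, 20.6 and 21.5 CPM at 8 h and 70.4, 64.004, 103 and 79.1 at 48 h. In both genes every 8 h tumor was below every vehicle and every 48 h tumor. ATG16L1 fell by 1.74 ± 0.11 at 8 h on the log2 scale (adjusted p = 1.69e-09) and was -0.19 ± 0.11 at 48 h. PLEKHM1 fell by 1.86 ± 0.16 at 8 h (adjusted p = 1.38e-08) and was 0.05 ± 0.15 at 48 h. GABARAP, the gene never called with the highest mean log2 CPM, was 0.42 ± 0.25 at 8 h.

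A list of 22 genes drawn up around the control of TFEB also holds MITF, TFEC, GPNMB and PPARGC1A. Of the 22, 4 rose and 0 fell at 2 h, beside 13.4% and 13.6% of all genes. At 8 h 4 rose and 3 fell, beside 20.6% and 23.7%. LAMTOR4, part of the lysosomal Ragulator scaffold, rose by 0.79 ± 0.15 at 8 h (adjusted p = 0.000152) and was 0.05 at 4 h (adjusted p = 0.847). FLCN, which lets mTORC1 act on TFEB, was 27.5, 33.5, 41.8 and 34.3 CPM in vehicle tumors, 48.2, 47.9, 49.5 and 62.4 at 2 h and 53.2, 48.3, 58.99 and 50.2 at 8 h, with no overlap, and rose by 0.60 ± 0.12 and 0.62 ± 0.12 on the log2 scale (adjusted p = 0.00101 and 0.000244). MTOR, the kinase of mTORC1 and by that rule the gene named here, was -0.26 ± 0.14 at 8 h. In deposited TPM, FLCN was 23.6 ± 5.10 in vehicle tumors, 30.2 ± 7.10 at 2 h, 28.8 ± 5.51 at 8 h and 23.7 ± 4.12 at 24 h (SD, n = 4). Values with the GC trend removed are not given here for the genes of these further lists.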

How the data were processed

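Whole-tumor RNA was measured in 24 tumors. The deposited files hold the authors' estimated counts and TPM per gene; Salmon 0.14.1, FastQC 0.12.1, bcl2fastq 2.17 and the build GRCh38.p13 are named in the submitters' processing notes. Nothing in the labels names the annotation release, the strand setting or a step against mouse reads. Symbols, coordinates and GC content came from GENCODE 29 on GRCh38, in which 57972 of 60230 identifiers were found, and the other 2258 held 0.0960% of counts.

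Estimated counts were rounded, filtered with filterByExpr, scaled by TMM and fitted with edgeR 4.0.16 (robust quasi-likelihood, R 4.3.3) over all 24 tumors. P-values were two-sided and adjusted by Benjamini-Hochberg over 18242 genes, with a threshold of 0.05. The standard error was the absolute log2 fold change divided by the square root of F. Levels are TMM-scaled CPM, and log2 CPM used a prior count of 2. Depth was 10516000 to 20639340 counts per tumor, and the standard errors of members ranged from 0.11 to 0.39. Groups came from the sample titles, and 7 comparisons were made.

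Values in each tumor are given for members called at 3 or more times and for TFEB, TFE3, MCOLN1, SQSTM1 and MAP1LC3B; other members are given by counts, ranges and their calls. The tumor values of LIPA and PSAP were added after they had been seen. From each pathway list came the 2 genes whose adjusted p was smallest, plus the most expressed gene called at no time. Members and lists were chosen with earlier results of these data known. Alternatives were DESeq2 1.42.0, RLE scaling, no filter, a filter of 50 counts in 4 tumors, only the groups compared, limma 3.58.1 on log2(TPM + 1), a replicate block, removal of a lowess trend on GC (span 0.3), a threshold of 0.01, leaving out each tumor and, chosen after seeing the data, leaving out 6 tumors rich in host markers. The fit was tested on simulated counts.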

Additional observations from a re-analysis of the deposited data

Results flagged for a closer look

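In 9 of 84 groups of 4 tumors, counted over the 14 members named in full, 1 tumor lay far from the other 3 (Dixon's ratio on log2 CPM); chance flags about 1 in 20 groups. In 24 h tumor 1, CTSA was at 8.17 (the next lowest 8.92), CTSL at 4.00 (others 4.85 to 4.94) and MAP1LC3B at 4.85 (others 6.12 to 6.22). In 4 h tumor 2, CTSA was at 8.15 (others 8.39 to 8.42), NPC1 at 6.10 (others 6.28 to 6.31) and NEU1, in the other direction, at 4.27 (others 2.90 to 3.12). CTSH was at 6.83 in 4 h tumor 4 (others 7.25 to 7.32), IDUA at 4.04 in vehicle tumor 4 (others 3.75 to 3.79) and TFE3 at 5.50 in 48 h tumor 4 (others 5.24 to 5.27).

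The effect against vehicle differed between 8 and 48 h for 10 members by the edgeR test of 48 h against 8 h. It was larger or less negative at 48 h by 1.20 for PSAP, 0.71 for NPC1, 0.69 for MAP1LC3B, 0.66 for SCARB2, 0.66 for ASAH1 and 0.48 for TFEB on the log2 scale. The difference of 48 h minus 8 h was -0.72 for IDUA, -0.52 for ARSA, -0.49 for MCOLN1 and -0.43 for NPC2.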

How the results depend on the processing

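Over the 47 calls of the members named in full, 417 of 470 values under 10 alternatives kept direction and side of the threshold, 53 lost the call and 0 reversed; leaving out each tumor kept 310 of 376. DESeq2 and RLE scaling lost 0 of 47 and the TPM fit 16. At an adjusted p under 0.01, fallen counts were 1 at 4 h, 5 at 8 h and 0 at 48 h, risen 3 at 48 h, and 2 rose and 1 fell between 8 and 48 h. On log2(TPM + 1), 4 rose and 2 fell at 2 h, 1 fell at 4 h, 3 rose and 0 fell at 48 h, and 1 fell between 8 and 48 h. With only the groups compared, 5 rose at 4 h, 3 fell at 48 h and 10 rose between 8 and 48 h. Without a filter 4 rose at 48 h and 2 fell between 8 and 48 h, and with the stricter filter 10 rose at 24 h. With the GC trend removed 5 fell at 24 h and 3 rose at 48 h. Without the tumors rich in host markers, 1 fell at 4 h, 4 at 8 h and 0 at 48 h, and 1 rose and 1 fell between 8 and 48 h. Between 2 and 8 h, 1 member rose under DESeq2, RLE scaling, the stricter filter, only the groups compared and GC removal with or without the block. Counts over all genes moved with the setting as well. Genes fallen at 8 h went from 3416 without the tumors rich in host markers to 5149 on log2(TPM + 1). Genes risen at 48 h went from 494 on log2(TPM + 1) to 1363 with only the groups compared. The causes were not tested.

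Leaving out each tumor gave 5 to 9 risen and 3 to 4 fallen at 2 h, 2 to 3 and 1 to 3 at 4 h, 7 to 8 and 5 to 9 at 8 h, 5 to 10 and 3 to 5 at 24 h, 3 to 8 and 0 to 1 at 48 h, 0 to 1 and 0 to 0 between 2 and 8 h, and 2 to 6 and 1 to 5 between 8 and 48 h. With a replicate block 0 members fell at 48 h; with the block and GC removal 5 fell at 24 h, and 3 rose and 0 fell at 48 h. The numbers do not pair the tumors: 20 of 60 same-number pairs correlated over 0.1 (mean -0.013), and 8 of 24 tumors correlated best with their own number. With 4 tumors a group, the median standard error of a member at 8 h was 0.16 on the log2 scale, which limits the differences that can be seen. Vehicle was sampled at 2 h only, so time in the study and treatment cannot be told apart at later times.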
